A study of Mus musculus with 5 samples.

Results

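CBX2 binding was examined at 10 Sox genes (Sox1, Sox2, Sox7, Sox8, Sox9, Sox10, Sox11, Sox14, Sox17 and Sox21) out of 22368 protein-coding genes, in mouse embryonic fibroblasts (MEFs). The genes were taken by name, as a list of Sox genes, and a gene was counted as carrying CBX2 in a library when its body, extended by 5 kb on each side, overlapped a called peak by at least 1 bp. CBX2 ChIP-Seq peak lists came from 3 lines, each 1 library. The lines share 1 origin, MEFs isolated from a mouse embryo with a floxed EED gene, EED being a core subunit of Polycomb Repressive Complex 2 (PRC2). The Control library is labelled as parental cells with floxed EED, and whether they carried an empty vector is not given in the sources used here. The EZHIP line was made by stable lentiviral expression of human EZHIP, and the K27M line by stable lentiviral expression of the histone mutant H3.3 K27M, both from a vector with the EF1a promoter and with puromycin selection. Whether a line is 1 clone or a pool is not given in the sources used here. The K27R and EEDnull libraries of the series were not analysed here. The lists held 289 peaks in Control, 255 with EZHIP and 327 with K27M, with no height or read count, so the read depth is unknown. Since each line had a single library, no spread between replicates could be measured and no test was run. Nothing in a peak list allows the cell type or the transgenes to be checked.

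SOX proteins are transcription factors that bind DNA through a high mobility group (HMG) box, and the family is divided into groups by sequence. SOXB1 proteins maintain neural progenitors, SOXB2 proteins act against them during neuronal differentiation, SOXE proteins direct neural crest, glial and cartilage lineages, and SOXF proteins act in endothelium and endoderm. CBX2 is a chromodomain subunit of Polycomb Repressive Complex 1 (PRC1), which can bind the histone mark H3K27me3 laid down by PRC2 and is typically found at CpG islands of silent developmental genes. EZHIP and H3.3 K27M both inhibit PRC2, so the comparison addressed whether CBX2 stayed at such genes when PRC2 was inhibited.

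CBX2 peaks were present at 4 of the 10 genes, and they were the same 4 in every list: Sox1 and Sox2 of group SOXB1, and Sox14 and Sox21 of group SOXB2. Under the same rule, 1.49% of all protein-coding genes had a peak in Control, 1.44% with EZHIP and 1.78% with K27M. The exact Clopper-Pearson 95% intervals were 1.34 to 1.66%, 1.29 to 1.61% and 1.61 to 1.97%, and they cover counting error only. They treat genes as independent, although neighbouring genes can share a peak, so they are too narrow. The other 6 members, from groups SOXC, SOXE and SOXF, had no peak in any list. The annotated 5′ end lay inside a peak at 3 members in Control (0.908% of all genes), at 3 with EZHIP (0.899%) and at 4 with K27M (1.20%), the difference being Sox14. The genes were listed with earlier results of these data known, so the height of these counts above the shares of all genes is a description of the list.

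The promoters of the 4 genes with peaks are shown because the edge of the CBX2 peak fell on different sides of the Sox14 promoter in different lists, and the other promoters lay inside the peak in every list. Each is the 250 bases that precede the 5′ end on mm9 (NCBIM37), read 5′ to 3′ in the direction of transcription, with CpG dinucleotides in capitals. They lie at chr8:12395269-12395518 (plus strand, Sox1), chr3:34548677-34548926 (plus strand, Sox2), chr9:99776664-99776913 (minus strand, Sox14) and chr14:118636253-118636502 (minus strand, Sox21).
Sox1: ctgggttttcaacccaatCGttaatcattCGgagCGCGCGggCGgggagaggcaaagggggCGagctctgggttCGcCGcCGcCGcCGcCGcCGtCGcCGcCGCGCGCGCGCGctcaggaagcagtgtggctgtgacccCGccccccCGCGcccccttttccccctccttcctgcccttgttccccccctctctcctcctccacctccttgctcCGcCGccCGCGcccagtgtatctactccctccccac
Sox2: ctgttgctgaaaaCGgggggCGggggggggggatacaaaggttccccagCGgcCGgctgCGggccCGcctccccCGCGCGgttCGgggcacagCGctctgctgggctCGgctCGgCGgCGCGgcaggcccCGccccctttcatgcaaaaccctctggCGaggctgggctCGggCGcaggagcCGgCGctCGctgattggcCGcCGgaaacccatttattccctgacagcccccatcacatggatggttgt
Sox14: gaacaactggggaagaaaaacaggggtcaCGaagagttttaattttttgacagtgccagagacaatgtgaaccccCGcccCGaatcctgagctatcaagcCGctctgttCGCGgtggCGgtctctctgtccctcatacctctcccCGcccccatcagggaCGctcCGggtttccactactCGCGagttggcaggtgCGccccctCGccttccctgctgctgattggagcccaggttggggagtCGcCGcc
Sox21: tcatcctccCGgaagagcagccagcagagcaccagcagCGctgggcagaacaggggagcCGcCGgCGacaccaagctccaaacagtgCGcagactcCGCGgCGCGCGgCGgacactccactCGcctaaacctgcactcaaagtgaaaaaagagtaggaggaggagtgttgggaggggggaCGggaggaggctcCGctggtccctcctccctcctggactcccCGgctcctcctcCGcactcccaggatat

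The Sox1 promoter held 29 CpG and that of Sox2 held 25, more than 92.6% and 88.0% of the promoters of all protein-coding genes, whose median was 8. Sox14 held 16 and Sox21 held 17, more than 69.4% and 72.0%. The promoters of the 6 members without a peak held from 6 CpG (Sox10) to 28 (Sox7), with a median of 13, so the groups overlapped. ACAAT, a form of the motif bound by SOX proteins, or its reverse complement ATTGT, counted separately and with overlaps allowed, occurred in 25.8% of all promoters. Other forms of the motif were not counted. ACAAT or ATTGT was found once in the promoter of Sox14 and not in those of Sox1, Sox2 or Sox21. This says only that these letters are absent from the other windows, not that those promoters lack a SOX site.

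Sox2, a regulator of pluripotent and neural progenitor cells, had the widest peak of the family in each list. The gene lies on chromosome 3 (34548927 to 34551383, plus strand) within an intron of the long noncoding RNA gene Sox2ot. The peak measured 23400 bp in Control (34540601 to 34564000), 24000 bp with EZHIP (34538601 to 34562600) and 26200 bp with K27M (34539601 to 34565800). It was ranked 32 of 289 by width in Control, 25 of 255 with EZHIP and 45 of 327 with K27M. The whole gene lay inside each of them, and a stretch of 22000 bp was common to all lists, which is 94.0% of the Control peak. Relative to the 5′ end, the Control peak ran from -8326 to 15073 bp, the EZHIP peak from -10326 to 13673 bp and the K27M peak from -9326 to 16873 bp. In EZHIP the peak was thus displaced upstream, by 2000 bp outward at the upstream edge and 1400 bp inward at the downstream edge. In K27M both edges lay outside the Control edges, by 1000 and 1800 bp. No 5′ end of another annotated gene was inside these peaks.

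Sox1, a SOXB1 gene of the neural plate and lens, lies on chromosome 8 (12395519 to 12399555, plus strand). Its symbol is not used in the GENCODE vM1 annotation, so the position comes from an exact and single match of the 300 bases of its RefSeq promoter to NCBIM37, with the RefSeq gene length of 4037 bp. It sits between exons of the predicted gene Gm5607. The peak measured 19000 bp in Control (12383601 to 12402600), 16400 bp with EZHIP (12384201 to 12400600) and 25200 bp with K27M (12382201 to 12407400). The ordering was therefore EZHIP below Control below K27M. Each peak covered the whole gene and ran further upstream than downstream of its 5′ end, with edges at -11918 and 7081 bp in Control, at -11318 and 5081 bp with EZHIP, and at -13318 and 11881 bp with K27M. The downstream edge moved most, 2000 bp inward in EZHIP and 4800 bp outward in K27M. The 5′ ends of Gm5607, 9748 bp upstream of that of Sox1, and of an annotated microRNA, AC102525.1, were inside the peak in all lists. The peak, and its upstream reach, therefore cannot be assigned to Sox1 alone.

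Sox21, a SOXB2 gene that promotes neuronal differentiation, lies on chromosome 14 (118632454 to 118636252, minus strand). The peak measured 13400 bp in Control (118625001 to 118638400), 11400 bp with EZHIP (118627001 to 118638400) and 14600 bp with K27M (118624001 to 118638600). It covered the whole gene in every list. On the upstream side the edge was the same in Control and EZHIP, at -2148 bp, and at -2348 bp in K27M, a difference of 1 bin of 200 bp, the step in which peaks were called. On the downstream side it lay at 11251 bp in Control, 9251 bp with EZHIP and 12251 bp with K27M. The long noncoding RNA gene Gm4675 starts inside Sox21 on the opposite strand, with 798 bp between the 5′ ends, and its start was inside the peak in all lists. Without strand or height, a peak cannot be assigned to either gene.

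Sox14, a SOXB2 gene of interneurons and midbrain, differed between the lists in whether its start was covered. The gene lies on chromosome 9 (99774644 to 99776663, minus strand). The peak measured 8800 bp in Control (99767001 to 99775800), 7800 bp with EZHIP (99767001 to 99774800) and 12400 bp with K27M (99766201 to 99778600). In Control it began 863 bp downstream of the 5′ end and covered 57.3% of the gene. In EZHIP it began 1863 bp downstream and covered 7.77%, which is 157 bp at the 3′ end. In K27M it began at -1937 bp and covered the gene with the promoter printed above. The upstream edge thus lay 2800 bp further out in K27M than in Control, while the downstream edge, at 9662, 9662 and 10462 bp, moved by 800 bp. Of the 229 protein-coding genes with a peak in all lists under the 5 kb rule, 15 (6.55%) had the 5′ end inside the K27M peak alone, Sox14 among them, and 148 (64.6%) had it inside in all lists, among them Sox1, Sox2 and Sox21.

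**Figure D1:**
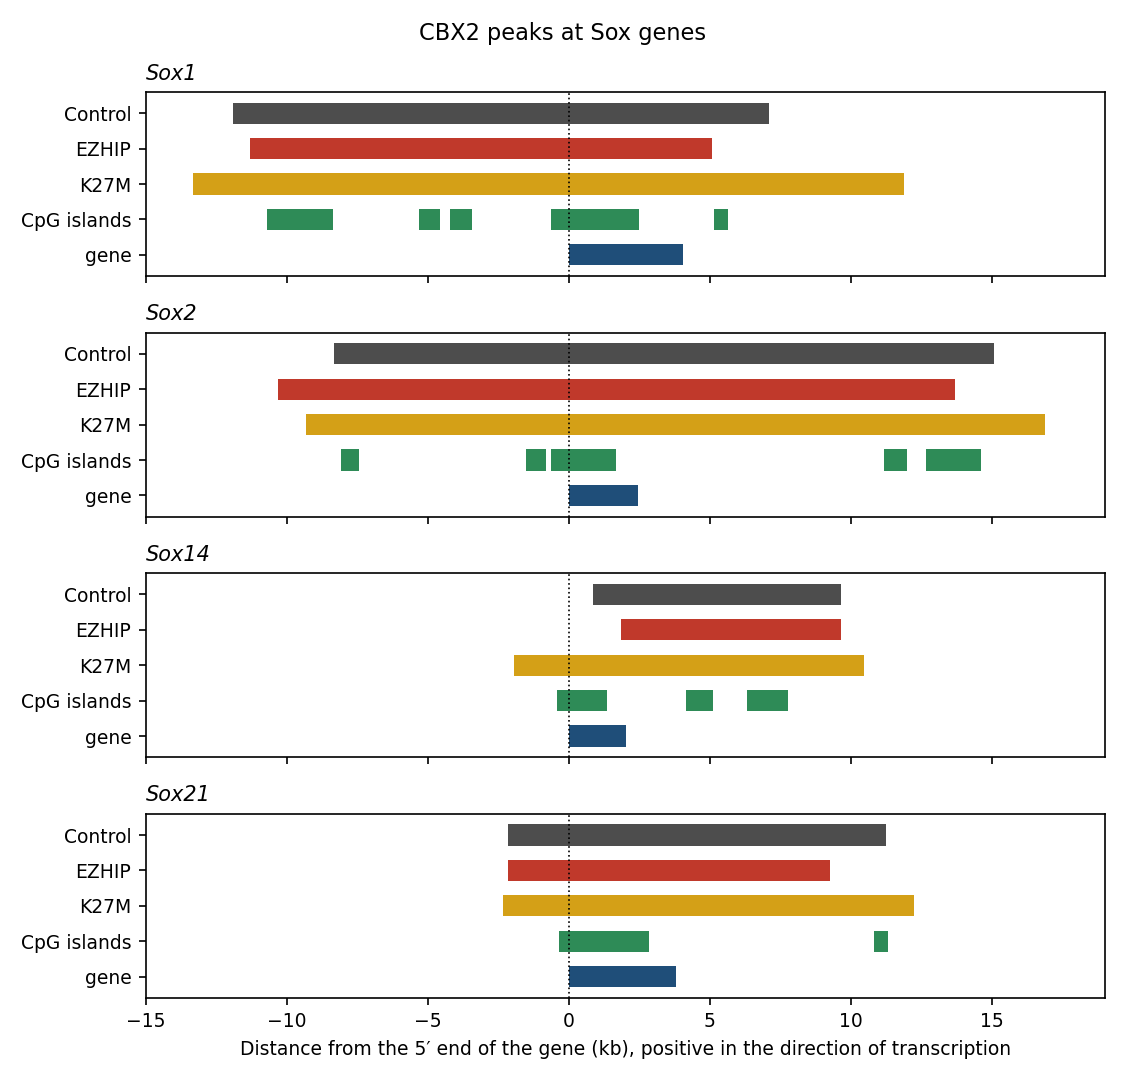
Called CBX2 peaks (grey, Control; red, EZHIP; yellow, K27M), CpG islands (green) and gene bodies (blue) at Sox1, Sox2, Sox14 and Sox21, against distance from the 5′ end in kb, positive in the direction of transcription; each bar is 1 peak of 1 library. The dotted 5′ end is inside every peak except those of Control and EZHIP at Sox14, which begin 863 and 1863 bp downstream of it.

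The 12 peaks at these genes, which are 4 places seen in 3 lists, were each wider than the median of their list. That median was 7400 bp in Control, 6800 bp with EZHIP and 9600 bp with K27M, and it covers peaks away from genes too. The order of widths was Sox2, Sox1, Sox21 and Sox14 in every list, and without replicates it cannot be said which neighbours in that order differ. Sox1 was wider than 82.7% of Control, 83.9% of EZHIP and 84.4% of K27M peaks. Sox21 was wider than 70.6%, 69.8% and 67.9%, and Sox14 than 56.7%, 52.2% and 60.6%. 

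Widths were compared with Control gene by gene. The K27M peak was wider than the Control peak at 4 of 4 genes, with log2 ratios of 0.41 at Sox1, 0.16 at Sox2, 0.49 at Sox14 and 0.12 at Sox21. Their median was 0.29. Over all 279 protein-coding genes with peaks in both lists the median was 0.12, the middle 50% ran from -0.04 to 0.71, and 62.0% of the genes had a wider K27M peak. The EZHIP peak was narrower at 3 of 4 genes, with log2 ratios of -0.21 at Sox1, -0.17 at Sox14 and -0.23 at Sox21, and 0.04 at Sox2. Their median was -0.19, against -0.06 over 259 genes, of which 56.8% were narrower in EZHIP. All 8 ratios lay within the range of the middle 50% of all genes. Both sets of ratios share the Control list. The median width of the whole list was also higher in K27M, and lower in EZHIP, than in Control. Neighbouring genes that share a peak, such as the Hoxc genes, each entered the values over all genes, so gene clusters weigh more in them. Counting only the width inside the gene windows, the K27M median became 0.12 and the EZHIP ratios at Sox2 and Sox21 and the K27M ratio at Sox2 became 0, because outer edges of these peaks lie beyond the windows.

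**Figure D2:**
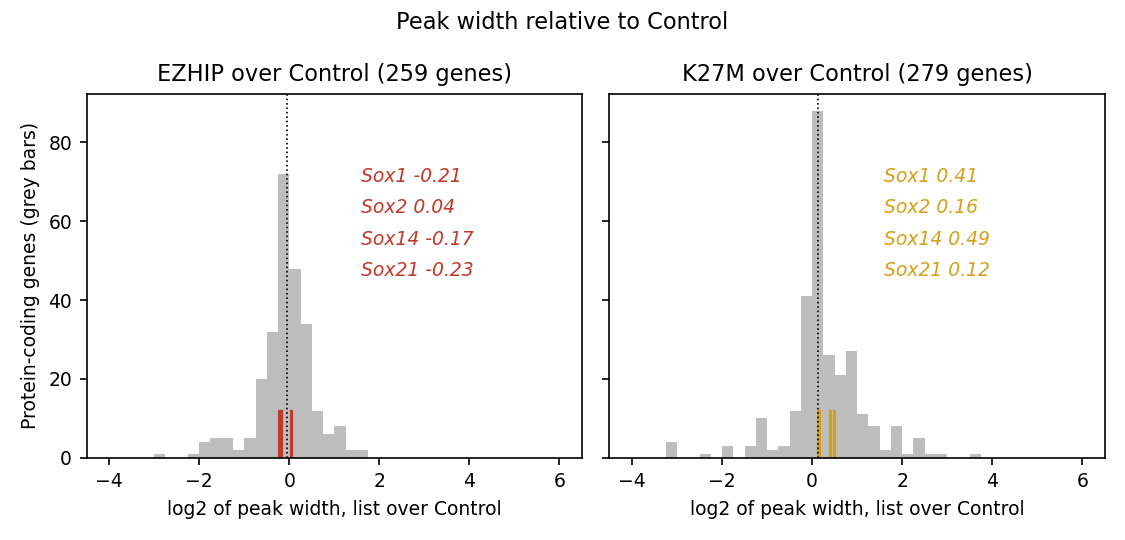
Histograms of the log2 ratio of peak width to Control for all protein-coding genes with peaks in both lists (grey bars, number of genes; left, EZHIP, 259 genes; right, K27M, 279 genes), with coloured ticks at Sox1, Sox2, Sox14 and Sox21 and a dotted line at the median of all genes. The Sox ticks run from -0.23 to 0.04 for EZHIP and from 0.12 to 0.49 for K27M, inside the bulk of the grey bars.

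The edges showed the same differences in base pairs. In K27M, 8 of the 8 edges at Sox1, Sox2, Sox14 and Sox21 lay outside the Control edge, by a median of 1200 bp. Both edges were outside at 4 of 4 genes, against 60.1% of the 208 Control peaks matched to a single K27M peak, where 70.9% of edges lay outside and the median shift was 800 bp. In EZHIP, 5 edges lay inside, 2 were at the same position and 1, the upstream edge of Sox2, lay outside. The median shift was -800 bp, negative values being inward, and both edges lay inside at 1 of 4 genes, Sox1. Among 183 matched pairs with EZHIP, 51.1% of edges lay inside, 14.5% were the same and 34.4% lay outside. In these pairs the median shift was -200 bp, and both edges lay inside at 30.6%. The number of reads in each library, which can move the edges of a called peak, is unknown, and its part in these shifts was not tested.

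Each of the peaks enclosed from 1 to 5 whole CpG islands. An island was a run of 500 bp windows, moved by 50 bp, with G+C of at least 55% and CpG at 0.65 or more of the number expected from base composition. Under the 4 genes there were 15 islands, 5 each at Sox1 and Sox2, 3 at Sox14 and 2 at Sox21. Of these, 13 lay wholly inside the Control peak, 11 inside the EZHIP peak and 15 inside the K27M peak. The island at the start of Sox14 spans 1800 bp, from -437 to 1362 bp, and was 27.8% inside the Control peak, outside the EZHIP peak and wholly inside the K27M peak. The other islands of Sox14, of 950 and 1450 bp and 4163 to 7762 bp downstream of its 5′ end, were inside the peak in all lists. The islands that the EZHIP peaks missed or cut at the other genes all lay at the downstream edge: 500 bp at Sox1 (5132 to 5631 bp), 500 bp at Sox21 (10802 to 11301 bp) and part of the 1950 bp island at Sox2 (12674 to 14623 bp), of which 51.3% was inside. The islands at the starts of Sox1 (3100 bp), Sox2 (2300 bp) and Sox21 (3200 bp) were wholly inside the peak in every list.

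Island sequence made up from 22.7% (Sox2, EZHIP) to 42.7% (Sox1, EZHIP) of a peak, so most of each peak lay outside islands. Peaks were called with a maximum gap of 10000 bp, so a called peak may bridge stretches without CBX2. How much of each peak that is could not be measured without reads. At Sox1 the Control and K27M peaks held the same 7500 bp of island, so the 6200 bp gained in K27M held none, and the CpG density fell from 43.4 per kb in Control to 36.2 per kb. At Sox14 the density was 35.8 per kb in Control and 35.9 per kb in K27M, and the K27M peak held 4200 bp of island against 2900 bp in Control. Exact repeats of 32 bp were scarce, and diverged repeats were not looked for. Of the 32-mers sampled every 100 bp, 0.397% at Sox1, 0.368% at Sox2, 0% of 124 at Sox14 and 2.74% at Sox21 occurred more than once in the genome.

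No other peak lay close to these, except near Sox21 in K27M. The next peak of the same list was 7.30 to 7.32 Mb away at Sox1 and 0.900 to 0.902 Mb away at Sox14. At Sox2 it was 16.6 Mb away in Control and K27M and 4.13 Mb away in EZHIP. At Sox21 it was 4.23 Mb away in Control and 3.21 Mb in EZHIP, whereas K27M had a further peak of 4000 bp at 0.196 Mb that contained no protein-coding 5′ end.

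The 6 members without a peak were far from any. Sox7, an endothelial SOXF gene on chromosome 14, was the nearest, at 633 kb from a peak in Control, 675 kb with EZHIP and 631 kb with K27M. Sox8, a SOXE gene of the neural crest and gonad, lay 1.27 Mb away in Control and EZHIP and 1.26 Mb in K27M. Sox10, the SOXE regulator of glia and melanocytes, was 1.09 Mb from a peak in Control and 3.41 Mb in EZHIP and K27M. Sox9, which drives cartilage formation, was 3.23 Mb away in every list. Sox17, the SOXF gene of endoderm, was 14.7 Mb, 5.30 Mb and 8.63 Mb away in Control, EZHIP and K27M, and Sox11, a SOXC gene of neurons, 27.8 Mb, 9.81 Mb and 29.6 Mb. All of these distances are far above the 5 kb of the gene window. A gene without a called peak can still bind CBX2 below the calling threshold, and no reads were at hand to show it.

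The rest of the Sox family was looked up in the same way. None of the other 10 genes had a peak in any list: Sox3 of SOXB1, Sox4 and Sox12 of SOXC, Sox5, Sox6 and Sox13 of SOXD, Sox18 of SOXF, Sox15, Sox30 and Sry. Peaks were thus found at 4 of 5 SOXB genes and at 0 of the 15 others. The share of all protein-coding genes was 1.49% in Control, 1.44% with EZHIP and 1.78% with K27M, so 0 of 15 is near it. Sox3, the exception in SOXB and a gene of the X chromosome, was 2.97 Mb from a peak in Control, 32.4 Mb with EZHIP and 2.85 Mb with K27M. Sox18, a SOXF gene of blood and lymphatic vessels, was the nearest of these to a peak, at 257 kb in Control, 211 kb with EZHIP and 257 kb with K27M. Sry, the testis-determining gene, lies on the Y chromosome, where no list had a peak. The authors' methods do not give the sex of the embryo, and cells without a Y chromosome could have no peak at Sry. That the peaks fell in SOXB was noticed after the values were seen.

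**Figure D3:**
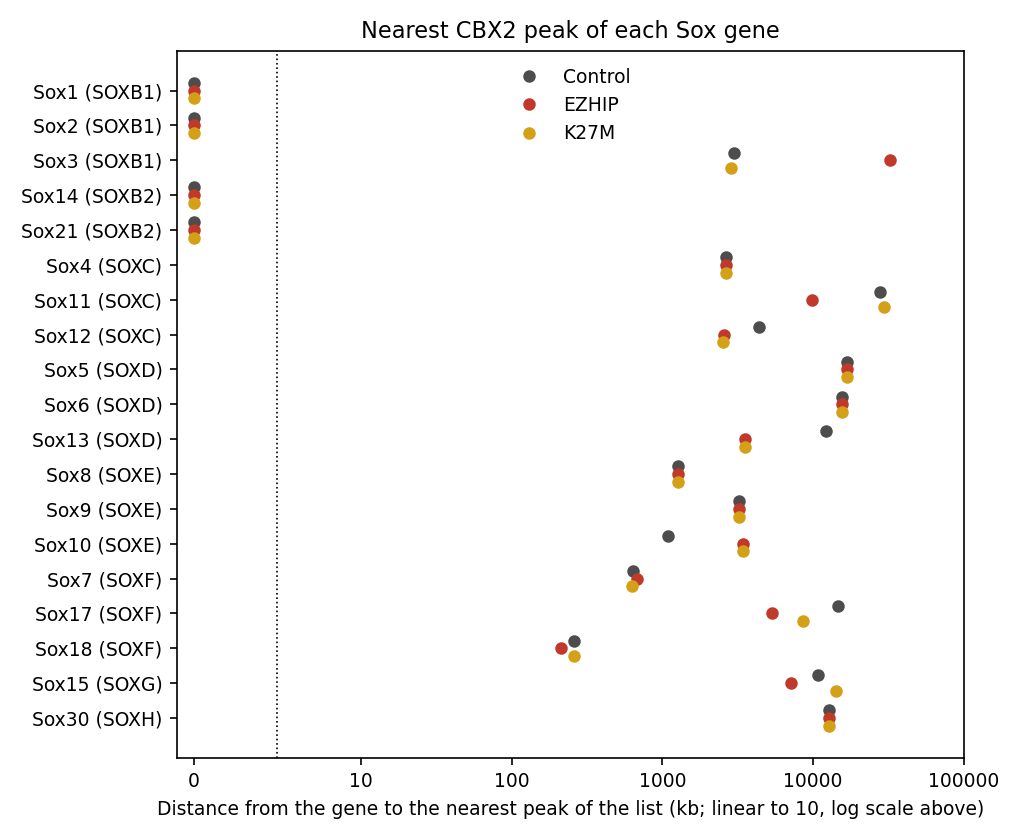
Distance in kb from each of 19 Sox genes to the nearest CBX2 peak of the Control (grey), EZHIP (red) and K27M (yellow) lists, on an axis that is linear to 10 kb and logarithmic above; Sry is not drawn because no list had a peak on the Y chromosome. Sox1, Sox2, Sox14 and Sox21 are at 0 in all lists and all others lie at 211 kb or more, far to the right of the dotted 5 kb limit.

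A CpG island at the start was not limited to the genes with peaks. All 10 members, and 8 of the 10 other Sox genes (all but Sox6 and Sry), had an island window within 1000 bp of the 5′ end, as did 53.2% of all protein-coding genes. Among the 11908 genes with such a window, the 5′ end lay in a peak at 1.41% in Control, 1.40% with EZHIP and 1.86% with K27M. Within 10 kb on each side of the 5′ end, the 4 genes with peaks had from 3200 bp (Sox21) to 6782 bp (Sox1) of island sequence, and the 6 members without had from 1150 bp (Sox10) to 4100 bp (Sox9). The number of CpG in the same stretch was 775 at Sox1, 578 at Sox2, 536 at Sox21 and 520 at Sox14. In the 6 members without peaks it ran from 344 (Sox7) to 506 (Sox11). The groups did not overlap in this count among the members, but Sox3 with 541 and Sox4 with 539 had no peak and lay above Sox14 and Sox21. The observed over expected CpG ratio was 0.434 to 0.579 at the 4 genes with peaks and reached 0.485 at Sox11, so that the ranges overlapped.

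**Figure D4:**
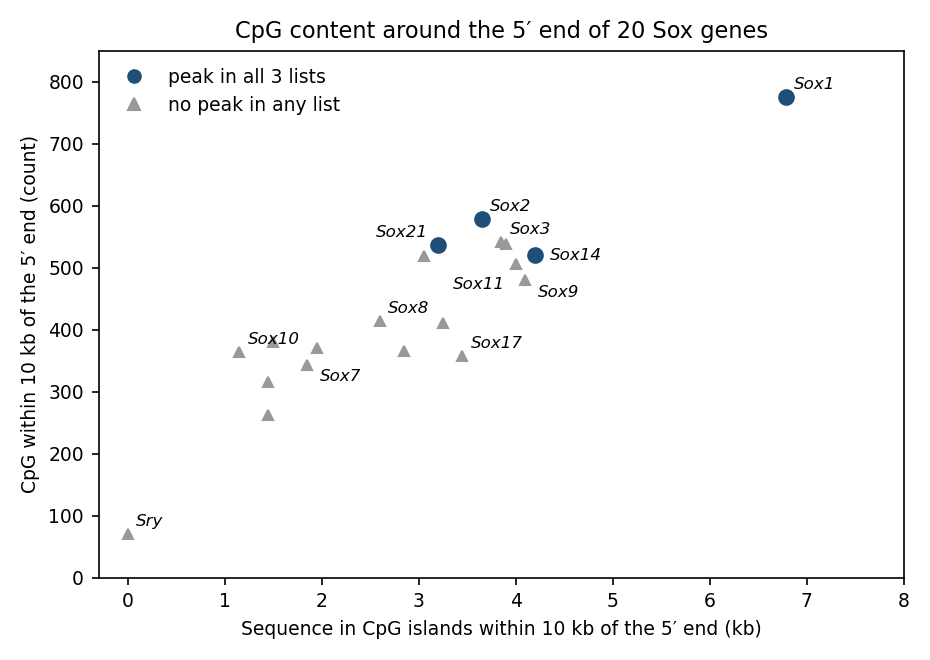
CpG count within 10 kb of the 5′ end against kb of CpG island sequence in the same stretch, for 20 Sox genes with a CBX2 peak in all 3 lists (circles, 4 genes) or in none (triangles, 16 genes). Sox1 stands apart at 775 CpG and 6782 bp, and Sox2 lies above all genes without a peak at 578 CpG, whereas Sox14 and Sox21, at 520 and 536 CpG, lie below Sox3 at 541, which had no peak.

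Other genes with peak widths like those of Sox2 were sought among the 145 protein-coding genes outside the family whose 5′ end lay in a peak of every list, using the Euclidean distance over the 3 log2 widths. The nearest was Sp8, at a distance of 0.09, with peaks of 23400 bp in Control, 22600 bp with EZHIP and 26200 bp with K27M. Nkx2-3 followed at 0.23, with 25200, 24600 and 30000 bp. Nr2e1 and Ostm1, which share 1 peak, came next at 0.27, with 24000, 26800 and 30400 bp.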

How the data were processed

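CBX2 ChIP-Seq was made from crosslinked MEF chromatin digested with micrococcal nuclease. The authors, by their methods, aligned reads to mm9 and a spike-in genome with bowtie1 (Bowtie 1.0.0 in the submitters' processing notes) and called broad peaks in each library with MOSAiCS-HMM, with a maximum gap of 10000 bp. Use of an input and scaling before calling are not given in the sources used here. The deposited lists hold the start and end of each peak in bp, in bins of 200 bp, with no score. Peak number and width can rise with reads, and the depth per library is unknown.

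Coordinates are 1-based. Genes came from GENCODE vM1 (22367 protein-coding records on NCBIM37, with 9 of the 10 members), to which Sox1 was added by its RefSeq promoter. The longer of the Sox4 records was used. Overlaps, widths, edges, islands and 32-mers were computed with Python 3.11.15, numpy 2.4.6 and scipy 1.17.1, and the overlap and island steps were tested on simulated data. A log2 ratio compares summed widths of all peaks at a gene, and no test was run. Genes named are all 20 mouse Sox genes, genes starting inside a peak of a member, and the 3 nearest in width to the member with the widest Control peak. Promoters are shown for the member whose start was covered in some lists and for those with the widest peaks. The members and lists were chosen with earlier results of these data known. Alternatives were other gene windows, transcript starts, minimum widths, joined peaks and clipped widths.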

Additional observations from a re-analysis of the deposited data

How the results depend on the processing

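Over 19 results, 67 alternative values were computed, of which 11 moved and 0 reversed. A reversal needed the opposite sign, so ratios that became 0 were counted as moved. Many of the other values repeated the main value by construction, so this tally is not a measure of stability. A count had to stay within 1.5 times, a median within the range over the 4 genes, a single ratio within the change made by 2 bins, and a share within its interval. The count of Sox genes with a peak was 4 in every list with no extension. An extension of 10 kb, a minimum width of 5000 bp and joining of peaks closer than 10000 bp could not change it and say nothing of its stability, since the narrowest of the 12 peaks measured 7800 bp, the nearest gene without a peak lay 211 kb from one and the nearest neighbouring peak 196 kb away. These settings, and no extension, also returned the same median width ratios, because the same single peak was used at each gene. At Sox1, Sox2 and Sox21 the peak with the 5′ end was that same peak, so their ratios could not change either. The medians under that setting did change, to 0.16 for K27M and -0.21 for EZHIP, because Sox14 dropped out and 3 genes remained. The counts of Sox genes with a peak were 3 without Sox1, an alternative chosen after seeing the data. With the 5′ end allowed within 1000 bp of a peak, Control had 4 genes, Sox14 included.

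The width inside the gene window moved the K27M median to 0.12, and the ratios to Control to 0.22 at Sox1, 0 at Sox2 and 0.026 at Sox21 for K27M, and to -0.26 at Sox1, 0 at Sox2, -0.26 at Sox14 and 0 at Sox21 for EZHIP. This follows from the construction, since edges beyond the window are not counted. With no extension, the shares of all genes with a peak came to 1.20% in Control, 1.22% with EZHIP and 1.49% with K27M. No ratio was available at Sox14 for the peak with the 5′ end. No paired analysis was possible because only 1 library stood in each group, and so none could be left out. Unknown depth limits every comparison of widths and edges.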
